A study of Mus musculus with 25 samples.

Results

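Lysosomes are kept acid by the vacuolar proton pump, a membrane enzyme whose cytosolic sector burns ATP while its membrane sector carries protons into the lumen. Around the pump sit heavily glycosylated membrane proteins, cholesterol exporters, calcium channels and sorting receptors, and the transcription factors Tfeb, Tfe3 and Mitf are known to switch many of these genes on through a short promoter element. In injured white matter, lysosomes of phagocytes are known to digest myelin debris, and those of oligodendrocyte lineage cells take part in the traffic of myelin proteins. The genes described here are every row of the table whose symbol starts with Atp6v0, Atp6v1 or Atp6ap, together with Lamp1, Lamp2, Laptm4a, Laptm4b, Laptm5, Mcoln1, Mcoln2, Mcoln3, Npc1, Npc2, Scarb2, Cd63, Tfeb, Tfe3 and Mitf. This gave 41 genes of 23351, of which 26 belong to the proton pump by symbol and 15 were named singly.

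RNA was measured in 25 mouse brain libraries that the labels call oligodendrocyte precursor cells, a glial cell type that gives rise to oligodendrocytes, the cells that make myelin. The cells were cut from tissue by laser capture. There were 8 libraries from Day 5 of white matter stroke, an ischemic injury of myelinated fibre tracts, 7 from Day 15 and 10 controls. The labels give neither strain nor age nor sex, nor what was done to the controls, and they do not tie libraries to animals. P-values measure the spread between these libraries, which may be technical, and would be too small were 1 animal the source of several libraries. Values are deposited RPKM, in which the reads of a gene are divided by its length and by the size of the library, and read numbers are not known.

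Detected genes, those with 1 RPKM or more, ranged from 2353 to 6592 at Day 5, from 1749 to 5266 at Day 15 and from 1306 to 4320 in controls, and RPKM sums without the ribosomal precursor Rn45s ranged from 15070 to 69709, from 11722 to 51081 and from 7210 to 33982. Day 5 replicates 1 and 3 had the 2 highest sums of their group, and 7 of the 21 tested members peaked in them. At Day 5 the sums were at least 35398 in replicates 1 to 6 and at most 22372 in 7 to 9, but 39845 in replicate 10. At Day 15 they were at least 35366 in replicates 2 to 6 and at most 16832 in 7 to 9. In controls sums of 7210 to 33982 in replicates 1 to 6 overlapped those of 10371 to 18506 in 7 to 10. Rn45s made up 68% of the RPKM sum in Day 5 replicate 10 and 73.4% in Control replicate 5, and at most 13.7% in any other library. Markers of the labelled cell type were unevenly detected. Ptprz1 and Vcan, a surface phosphatase and a matrix proteoglycan, reached 1 RPKM in 8 of 8 libraries at Day 5 and 7 of 7 at Day 15, and in 10 and 8 of 10 controls. The lineage factors Sox10 and Olig1 did so in 7 and 5 libraries at Day 5, 4 and 5 at Day 15 and 7 and 7 controls, and Olig2 in 1, 0 and 4. Pdgfra, the growth factor receptor of precursor cells, did so in 6 of 8, 1 of 7 and 3 of 10, and the proteoglycan Cspg4 in 3, 3 and 1. The 15 precursor markers summed to a median of 32.4, 46.4 and 22.9 RPKM in these groups, against 331, 178 and 825 RPKM for 14 markers of myelinating oligodendrocytes. In the same order, 10 astrocyte markers summed to a median of 50.9, 168 and 61.0 RPKM, above the precursor markers in each group. Medians were 7.99, 14.9 and 5.58 RPKM for 10 endothelial markers and 8.55, 11.6 and 1.91 RPKM for 11 pericyte and fibroblast markers. Markers of phagocytes moved with the stroke groups. The 17 microglia markers summed to 66.4 to 557 RPKM at Day 5, 61.7 to 510 RPKM at Day 15 and 8.59 to 120 RPKM in controls. The 20 macrophage and leukocyte markers summed to 159 to 2656, 49.9 to 729 and 2.82 to 224 RPKM. At Day 5, 5 of 16 tested microglia markers and 6 of 13 tested macrophage markers rose by limma on the values as deposited. Of all 4319 tested genes 6.02% did. After each of 3 scalings of the libraries (upper quartile, RPKM sum without Rn45s, quantiles) 0 and 5 of these markers rose, and with detected genes as a covariate 0 and 0. Of all 4319 tested genes 19, 29 and 14 rose after these scalings, and 0 with the covariate. No defining phagocyte marker was at 0 throughout: Lyz2, the myeloid lysozyme, had a median of 174 RPKM at Day 5, 32.2 RPKM at Day 15 and 4.56 RPKM in controls. Fewer cells of a type and less RNA per cell cannot be told apart in such samples. The part that RNA of phagocytes or of other cell types has in the results below was not tested.

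The promoters of 4 members are shown. Of these, Lamp2, Atp6v0b and Atp6ap1 rose at Day 5, and Lamp1 carries the most copies of the E-box CACGTG to which Tfeb, Tfe3 and Mitf bind. Atp6v1c1 also rose at Day 5, but no promoter sequence was available for it, so it was not searched. Each line gives the 100 bases before the start of the gene, 5′ to 3′, from RefSeq on GRCm38.p6, with the E-box and a flanking T before it or A after it in capitals. The regions are chrX:38456461-38456560 on the minus strand for Lamp2, chr4:117887330-117887429 on the minus strand for Atp6v0b, chrX:74296997-74297096 on the plus strand for Atp6ap1 and chr8:13159061-13159160 on the plus strand for Lamp1.
Lamp2: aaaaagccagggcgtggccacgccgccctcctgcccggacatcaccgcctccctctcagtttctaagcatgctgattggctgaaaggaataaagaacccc
Atp6v0b: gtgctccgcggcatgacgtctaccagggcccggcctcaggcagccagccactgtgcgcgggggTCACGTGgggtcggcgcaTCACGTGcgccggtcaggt
Atp6ap1: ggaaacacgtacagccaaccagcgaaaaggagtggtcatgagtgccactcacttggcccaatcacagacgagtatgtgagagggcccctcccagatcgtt
Lamp1: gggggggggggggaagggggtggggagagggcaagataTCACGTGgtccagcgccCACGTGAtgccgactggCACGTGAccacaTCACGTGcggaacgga

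The E-box was searched on both strands (it reads the same on each) in windows from 250 bases before to 50 bases after the gene start. Of 31 members with such a window, 7 held CACGTG (22.6%), against 8.09% of 27025 genes. The longer form CACGTGA or its reverse TCACGTG, which contains the E-box, was in 6 of the 31 (19.4%), against 4.29% of all genes. Lamp1, the most abundant glycoprotein of the lysosomal membrane, held 4 copies between 61 and 15 bases before its start. Atp6v0b, a proton-carrying subunit of the membrane ring, held 2 copies, at 36 and 18 bases. Single copies stood in Atp6v0d1, Atp6v0e and Atp6v1a, and the lysosomal calcium channels Mcoln1 and Mcoln2 held 2 and 1. No copy was in the windows of Lamp2, Atp6ap1, Laptm5 or Cd63, among others. A match describes letters in this window and is not a binding site.

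Many members were close to the lower limit of these libraries. Of the 41 genes, 21 reached 1 RPKM in 7 or more libraries and were tested, 12 pump genes and 9 of the others. A gene could pass this filter through Day 5 alone, as nearly happened for Atp6v0b (6 libraries at Day 5, 1 at Day 15 and 0 controls), so counts over the tested members describe them and support nothing. Per library, 15 to 29 of the 41 genes reached an RPKM of 1 at Day 5 (median 19.5), 9 to 17 at Day 15 (median 14) and 7 to 17 in controls (median 11). The median number of all genes at that level was 4006.5, 2509 and 2329.5 in the same groups. The part of detection in the members' levels was not tested.

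**Figure D1:**
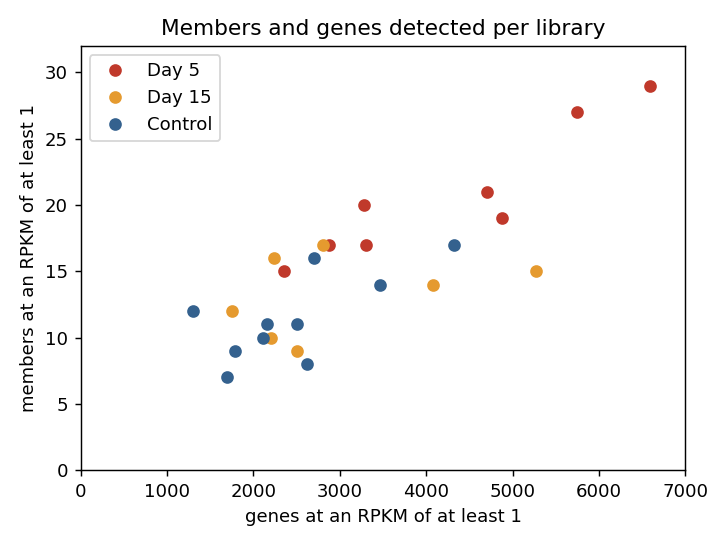
Each point is 1 library, with the number of genes at an RPKM of at least 1 on the x axis and the number of the 41 members at that level on the y axis, coloured by group. Day 5 replicates 1 and 3 stand at the upper right with 27 and 29 members, while Control replicate 3, with the fewest genes (1306), holds 12.

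**Figure D2:**
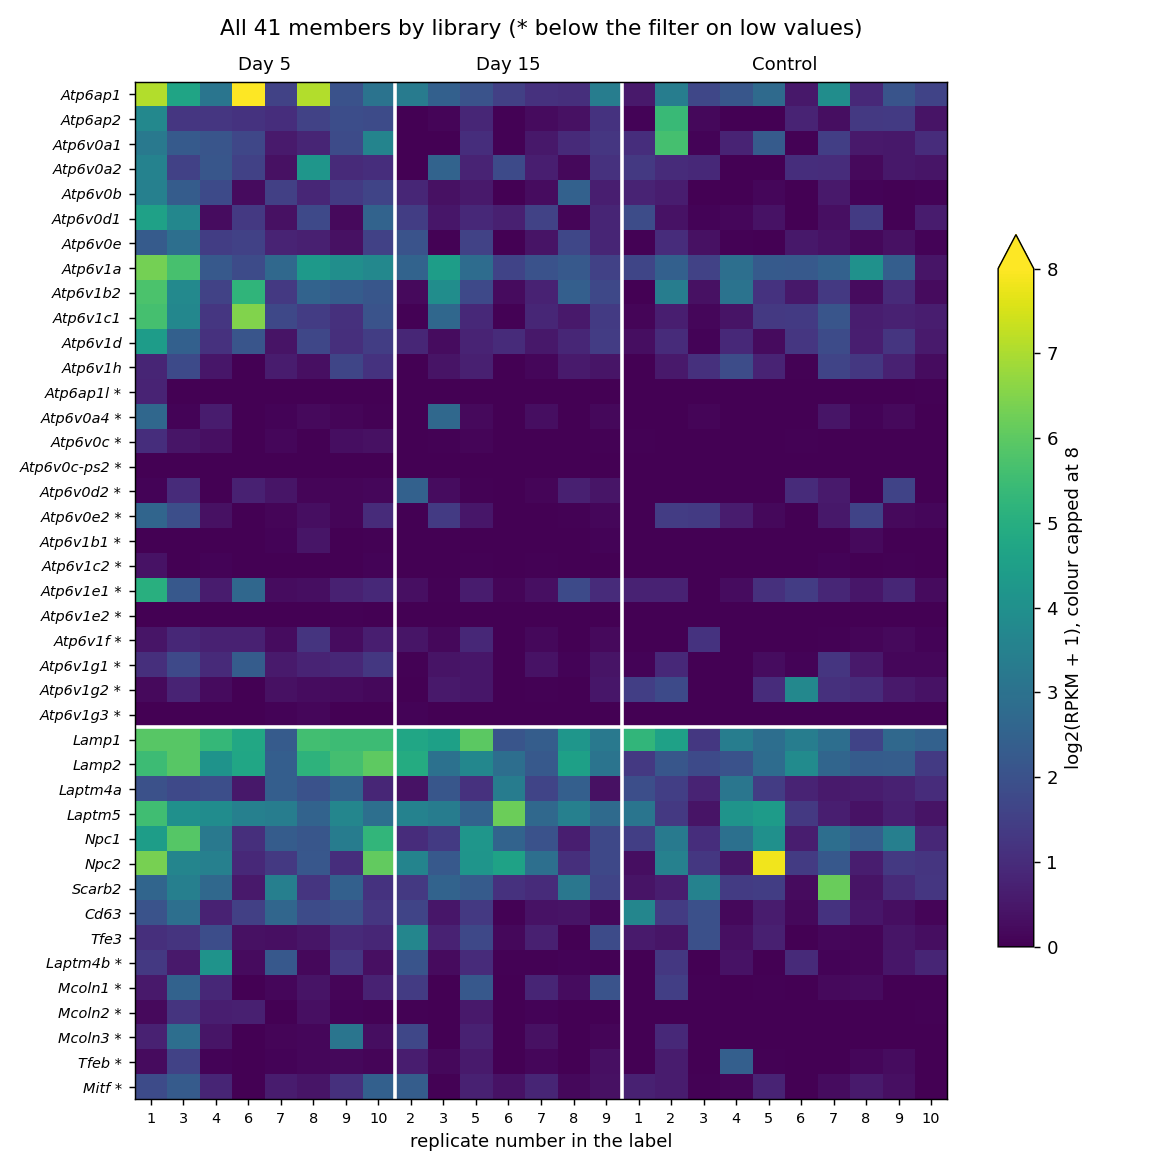
log2(RPKM + 1) of all 41 members (vertical axis, pump genes above the white line) in the 25 libraries (horizontal axis, replicate numbers from the labels). An asterisk marks the 20 genes below the filter. High values at Day 5 sit mostly in replicates 1 and 3, and replicate 6 holds the highest Atp6ap1 value, 684 RPKM.

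At Day 5, 4 of the 21 tested members rose and none fell: Lamp2 and the pump genes Atp6ap1, Atp6v1c1 and Atp6v0b. By limma at an adjusted p under 0.05, 6.02% of all 4319 tested genes were called higher and 0.0232% lower (6.04% in either direction). All 21 had a change above 0 on the log2(RPKM + 1) scale, with a median of 1.17, but the median of all tested genes was itself displaced by 0.61, and 84.9% of them were above 0. Against that displaced median, 17 of the 21 stood higher. Scaling moved the median of all genes to 0.13 (upper quartile), 0.15 (same sum without Rn45s) and -0.02 (quantile normalization), and that of the members to 0.67, 0.65 and 0.45. In each case 17 of 21 stood above the median of all genes. Upper-quartile and sum scaling shift the genes of a library nearly alike, so this count could hardly change under them. After the 3 scalings 0 members were called, against 23, 33 and 20 genes in the table. An unadjusted p under 0.05 was held by 7, 7 and 6 members, against 551, 564 and 529 of all 4319 genes. With detected genes as a covariate 0 members and 0 of 4319 genes were called. There 5 members and 447 of all genes had an unadjusted p under 0.05. Without Day 5 replicates 1 and 3 the members' median was 0.66 against 0.39 over all genes. Of the members 20 of 21 were above 0, as were 74.5% of all genes, and 0 were called, against 54 genes. An unadjusted p under 0.05 was held by 9 members and 684 of all genes. That omission gave limma adjusted p = 0.137 for Atp6ap1, 0.178 for Atp6v1c1 and 0.125 for Atp6v0b. The calls of these 3 were also lost without the filter (limma adjusted p = 0.176, 0.162 and 0.0927) and with the covariate (limma adjusted p = 0.379, 0.412 and 0.379), and that of Lamp2 with the covariate (limma adjusted p = 0.181).

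**Figure D3:**
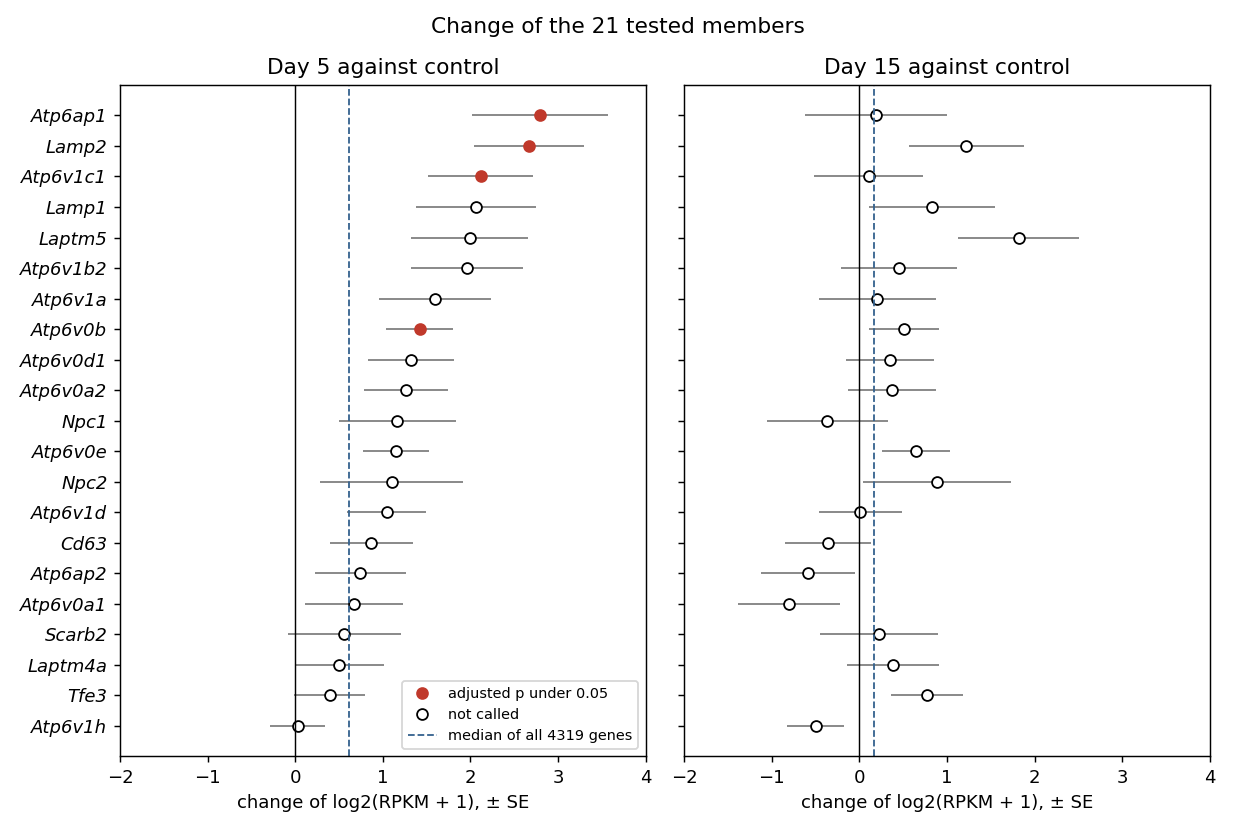
Change of log2(RPKM + 1) with its standard error for the 21 tested members, Day 5 against control on the left and Day 15 against control on the right. Filled points are called at an adjusted p under 0.05. At Day 5 the 4 called members lie between 1.42 and 2.79, right of the dashed median of all genes at 0.61, and at Day 15 no member is called.

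Among the glycoproteins that line the lysosomal membrane, Lamp2 also serves as the receptor of chaperone-mediated autophagy. It ranged from 4.29 to 63.8 RPKM at Day 5 (median 39.0), from 3.73 to 29.1 RPKM at Day 15 (median 7.53) and from 1.54 to 13.4 RPKM in controls (median 3.71). At Day 5, 7 of 8 libraries were above the highest control, and replicate 7 lay within the control range. The rise was 2.67 (SE 0.63, limma adjusted p = 0.0110). It was 2.73 within replicate numbers 1 to 6 and 2.64 within 7 to 10. The labels name no batch for this split of libraries by number, but RPKM sums of most stroke libraries differed along it. The call held without each library in turn (limma adjusted p from 0.00346 to 0.0266). It was lost under the 3 scalings, where the rise was at least 1.76 (limma adjusted p = 0.137 for upper quartile, 0.130 for sum and 0.136 for quantile), and without Day 5 replicates 1 and 3 together (2.41, limma adjusted p = 0.0574).

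Lamp1, its close relative, ranged from 3.94 to 60.1 RPKM at Day 5 (median 43.7), from 3.32 to 62.2 RPKM at Day 15 (median 17.5) and from 1.46 to 37.4 RPKM in controls (median 6.39). Here too 6 of 8 libraries at Day 5 exceeded the highest control, while replicate 7 held the lowest value, far below the next at 26.9 RPKM. The change of 2.06 (SE 0.69) did not pass (limma adjusted p = 0.0558). It passed with the 2 groups fitted alone (limma adjusted p = 0.0494) and, at 2.46, without Day 5 replicate 7 (limma adjusted p = 0.0216). Cd63, a tetraspanin of late endosomes, ranged from 0.708 to 6.52 RPKM at Day 5, from 0.0434 to 2.12 RPKM at Day 15 and from 0.0730 to 11.8 RPKM in controls. Its medians were 2.75, 0.341 and 0.451 RPKM, with the highest control above every stroke library, and its Day 5 change of 0.87 did not pass (limma adjusted p = 0.233). Scarb2, the receptor that sorts glucocerebrosidase to lysosomes, had medians of 4.84, 2.15 and 1.17 RPKM in the same groups, with 71.4 RPKM in Control replicate 7. Its change of 0.56 did not pass (limma adjusted p = 0.603) and turned to -0.14, -0.093 and -0.23 when libraries were scaled by upper quartile, sum or quantiles. It was 1.06 without Control replicate 7.

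**Figure D4:**
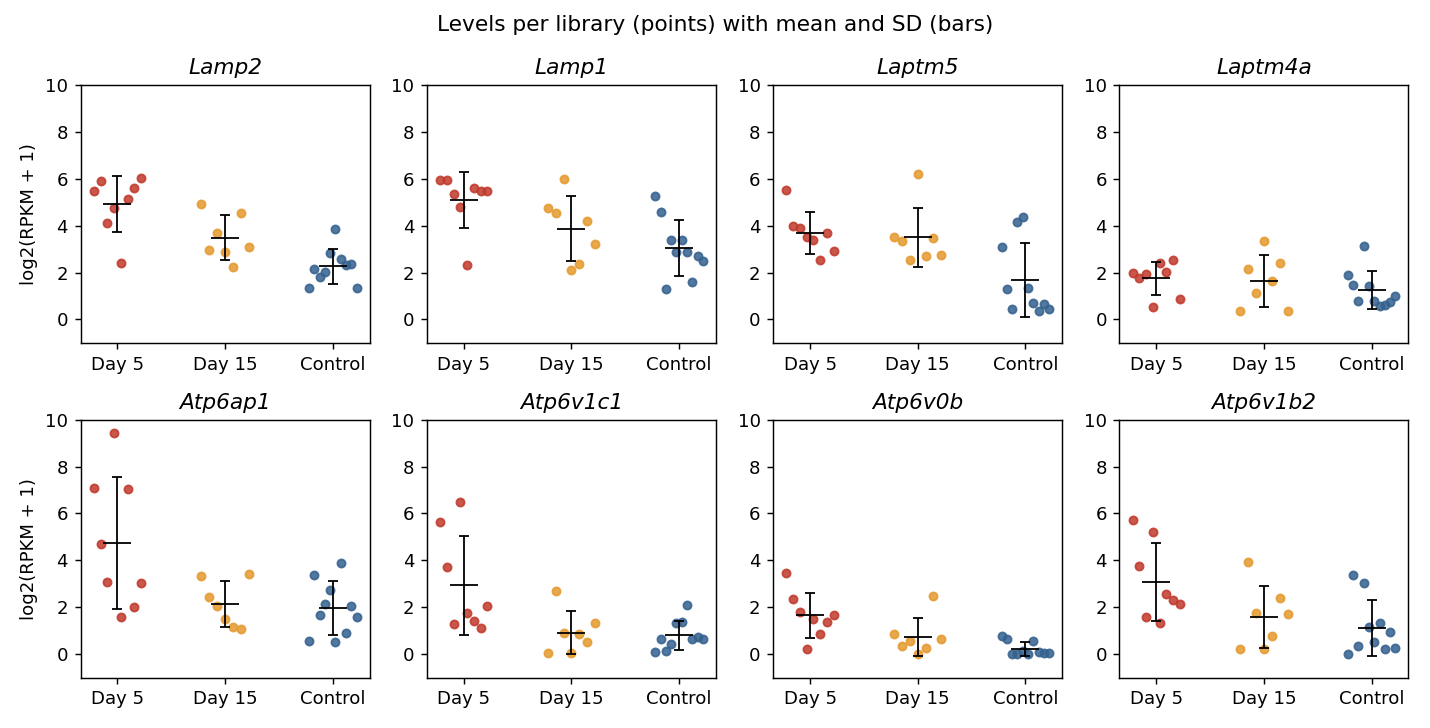
log2(RPKM + 1) of 8 members in each library (points) with the mean and SD of each group (bars), in the order Day 5, Day 15 and Control. For Lamp2, 7 of 8 Day 5 libraries lie above all controls, whereas for Atp6ap1 and Atp6v1c1 the 3 highest libraries stand well above the rest of the Day 5 group.

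The LAPTM proteins span the lysosomal membrane several times, and Laptm5 is the form of blood cells and microglia. It ranged from 4.78 to 45.3 RPKM at Day 5 (median 11.1), from 4.74 to 72.4 RPKM at Day 15 (median 9.26) and from 0.301 to 19.8 RPKM in controls (median 1.05). All stroke libraries of both days were above the control median, but Control replicates 5, 4 and 1 reached 19.8, 16.7 and 7.61 RPKM and overlapped them. The Day 5 change of 1.99 (SE 0.67) did not pass (limma adjusted p = 0.0558). It passed in the fit of the 2 groups alone (limma adjusted p = 0.0494) and, at 2.29, without Control replicate 5 (limma adjusted p = 0.0282). Laptm4a, the widely expressed form, had medians of 2.89, 2.09 and 0.881 RPKM and a Day 5 change of 0.51 (limma adjusted p = 0.545), with -0.029 and -0.058 after upper-quartile and quantile scaling. Laptm4b, below the filter, reached 16.4 RPKM in Day 5 replicate 4 and had medians of 0.943, 0.0585 and 0.197 RPKM.

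The accessory subunits assemble the pump and guide it to its membranes. Atp6ap1 ranged from 2.01 to 684 RPKM at Day 5 (median 16.1), from 1.12 to 9.57 RPKM at Day 15 (median 3.15) and from 0.427 to 14.0 RPKM in controls (median 2.70). Day 5 replicates 6, 1 and 8 held 684, 135 and 133 RPKM, and 4 of 8 libraries lay within the control range. The rise was 2.79 (SE 0.78, limma adjusted p = 0.0278), 4.23 within replicate numbers 1 to 6 and 1.30 within 7 to 10. Leaving out Day 5 replicate 1, 3 or 6, or else Control replicate 6, ended the call (limma adjusted p = 0.0687, 0.0546, 0.0556 and 0.0537), as did the 3 scalings, with 1.96, 2.00 and 1.87 for upper quartile, sum and quantile (limma adjusted p = 0.228, 0.214 and 0.257). Atp6ap2, also known as the prorenin receptor, had medians of 1.71, 0.177 and 0.272 RPKM and reached 41.8 RPKM in Control replicate 2. Its Day 5 change of 0.74 did not pass (limma adjusted p = 0.360), and it did without that control (1.23, limma adjusted p = 0.0382).

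In the cytosolic sector, which splits ATP, Atp6v1c1 rose. This subunit bridges the sector to the stator stalks and ranged from 1.18 to 87.8 RPKM at Day 5 (median 2.77), from 0.0238 to 5.44 RPKM at Day 15 (median 0.801) and from 0.0717 to 3.31 RPKM in controls (median 0.576). The values of Day 5 replicates 6, 1 and 3 were 87.8, 48.7 and 12.1 RPKM, and the other 5 libraries were within the control range. The rise was 2.12 (SE 0.60, limma adjusted p = 0.0294), 3.60 within replicate numbers 1 to 6 and 0.56 within 7 to 10. Single omissions that ended the call were Day 5 replicates 1, 3 and 6 and Control replicates 1 and 3 (limma adjusted p = 0.0768, 0.0658, 0.0516, 0.0508 and 0.0538), and it was also lost under the 3 scalings, with 1.47, 1.50 and 1.26 for upper quartile, sum and quantile (limma adjusted p = 0.217, 0.191 and 0.304).

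The catalytic subunit Atp6v1a had medians of 13.4, 3.67 and 4.02 RPKM at Day 5, at Day 15 and in controls, with 78.6 and 49.9 RPKM in Day 5 replicates 1 and 3, and a change of 1.59 (limma adjusted p = 0.108). Atp6v1b2, the nucleotide-binding partner of the brain form, had medians of 4.44, 2.32 and 0.679 RPKM, with all 8 Day 5 libraries above the control median and 3 above the highest control. Its change of 1.96 (SE 0.64) did not pass (limma adjusted p = 0.0529), though it did with the 2 groups fitted alone (limma adjusted p = 0.0494). Atp6v1d of the rotor shaft and the regulatory subunit Atp6v1h had changes of 1.04 and 0.03 (limma adjusted p = 0.135 and 0.961). The Atp6v1h value became -0.42 with upper-quartile, -0.37 with sum and -0.62 with quantile scaling.

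The peripheral stalk subunits of this sector were below the filter, and their values are a description. Atp6v1g1, the widespread form, ranged from 0.487 to 4.07 RPKM at Day 5 (median 1.03), from 0.0114 to 0.405 RPKM at Day 15 (median 0.301) and from 0 to 1.37 RPKM in controls (median 0.101). Atp6v1g2, the form of neurons, ran the other way, from 0 to 0.723 RPKM at Day 5 (median 0.179), from 0 to 0.463 RPKM at Day 15 (median 0.0441) and from 0.00189 to 12.2 RPKM in controls (median 0.996). No stroke library of either day exceeded its control median. The 10 neuronal markers in the table summed to a median of 3.99 RPKM at Day 5, 4.06 RPKM at Day 15 and 9.07 RPKM in controls, and their part in this was not tested. Atp6v1e1 reached 32.2 RPKM in Day 5 replicate 1 and had medians of 0.775, 0.258 and 0.698 RPKM. Atp6v1b1, Atp6v1c2, Atp6v1e2 and Atp6v1g3, the forms of kidney, epithelium or testis, stayed below 1 RPKM in all 25 libraries, as did the accessory-like Atp6ap1l and the pseudogene Atp6v0c-ps2. Atp6v1f, a small subunit of the shaft, had medians of 0.618, 0.138 and 0.0271 RPKM at Day 5, at Day 15 and in controls.

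In the membrane sector Atp6v0b rose at the lowest levels of the 4 called genes. It ranged from 0.176 to 10.1 RPKM at Day 5 (median 1.99), from 0.0104 to 4.66 RPKM at Day 15 (median 0.457) and from 0 to 0.724 RPKM in controls (median 0.0517). All Day 5 libraries but replicate 6 exceeded the highest control. It passed the filter with 6 libraries at Day 5, 1 at Day 15 and 0 controls. It was thus tested mainly because it was high at Day 5, so this separation and the call below are a description. The rise was 1.42 (SE 0.38, limma adjusted p = 0.0226), 1.70 within replicate numbers 1 to 6 and 1.16 within 7 to 10. The call was lost without Day 5 replicate 3 (limma adjusted p = 0.0503) and under the 3 scalings, with 1.04, 1.07 and 0.92 for upper quartile, sum and quantile (limma adjusted p = 0.184, 0.162 and 0.244).

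Atp6v0e, a small subunit of the membrane sector, had medians of 1.82, 0.767 and 0.200 RPKM at Day 5, at Day 15 and in controls, with all 8 Day 5 libraries above the control median, and a change of 1.15 (SE 0.38) that did not pass (limma adjusted p = 0.0529), though it did with the 2 groups alone (limma adjusted p = 0.0321). Its relative Atp6v0e2, below the filter, had medians of 0.265, 0.0334 and 0.296 RPKM. The large a subunits differ in the membranes they reach. Atp6v0a1, the form of neurons, had medians of 2.93, 0.436 and 0.887 RPKM and a change of 0.67 (limma adjusted p = 0.456) that was -0.015 after quantile normalization and 1.15 without Control replicate 2, which held 48.9 RPKM. Atp6v0a2, the Golgi form, had medians of 1.93, 0.725 and 0.661 RPKM and a change of 1.27 (limma adjusted p = 0.0870). Atp6v0a4, the kidney form, was below the filter but held 5.43 RPKM in Day 5 replicate 1 and 5.56 RPKM in Day 15 replicate 3. Atp6v0d1, which couples both sectors, had medians of 1.95, 0.767 and 0.274 RPKM and a change of 1.32 (limma adjusted p = 0.0807), while Atp6v0d2, its counterpart in osteoclasts and macrophages, had medians of 0.0868, 0.210 and 0.00295 RPKM. Atp6v0c, the main proton-carrying ring subunit, did not exceed 1.06 RPKM in any library and was listed at 0 in 8 of 10 controls. Reads of such a gene can be shared with pseudogene copies such as Atp6v0c-ps2, so its level is uncertain.

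Npc1 and Npc2 hand cholesterol out of the lysosome. Npc1 had medians of 8.78, 2.35 and 5.38 RPKM at Day 5, at Day 15 and in controls, and Npc2 had 6.78, 6.60 and 1.49 RPKM. Control replicate 5 held 229 RPKM of Npc2, above every stroke library, and the next control held 10.5 RPKM. Their Day 5 changes of 1.17 and 1.10 did not pass (limma adjusted p = 0.255 and 0.387), and a fit with detected genes as a covariate gave -0.27 and -0.63. The Npc2 value was 1.75 without Control replicate 5 and 0.64 without Day 5 replicate 1.

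The mucolipin channels release calcium from lysosomes, and all 3 were below the filter. Mcoln1 ranged from 0 to 4.77 RPKM at Day 5, from 0.0139 to 3.61 RPKM at Day 15 and from 0 to 1.81 RPKM in controls. Mcoln2 ranged from 0.0191 to 1.28 RPKM at Day 5 (median 0.203), from 0 to 0.451 RPKM at Day 15 (median 0.0159) and from 0 to 0.0328 RPKM in controls (median 0.00261). At Day 5, 7 of 8 libraries were above the highest control, but only 1 of 25 libraries reached 1 RPKM. The part of detection in this was not tested, and the share of such low genes that do the same was not computed. Mcoln3 was listed at 0 in 6 of 10 controls and reached 7.60 and 6.42 RPKM in Day 5 replicates 9 and 3.

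The transcription factors that drive lysosomal genes were low in every group. Tfe3 had medians of 0.871, 0.717 and 0.317 RPKM at Day 5, at Day 15 and in controls and a Day 5 change of 0.39 (limma adjusted p = 0.552), with -0.041 after upper-quartile, -0.040 after sum and -0.25 after quantile scaling. Tfeb had medians of 0.0827, 0.123 and 0.0267 RPKM, with 4.33 RPKM in Control replicate 4. Mitf had medians of 0.949, 0.320 and 0.239 RPKM, and 5 of 8 Day 5 libraries were above its highest control of 0.727 RPKM. Tfeb and Mitf were below the filter, and the share of such low genes that separate like Mitf was not computed.

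At Day 15 against control 0 of the 21 tested members were called by limma, and 1, Laptm5, had an unadjusted p under 0.05. Of all tested genes 0.0926% were called higher and 0% lower, and 383 had an unadjusted p under 0.05. The members' median change was 0.35 against 0.17 over all genes, and 16 of 21 were above 0, as were 62.1% of all genes. Without Day 15 replicate 3 the medians were 0.12 and 0.088. The members' median was 0.14 after upper-quartile, 0.0052 after sum and 0.12 after quantile scaling, with 11 of 21 above 0 each time. Of all genes 48.9%, 43.5% and 48.2% were above 0 after these scalings. Laptm5 had the smallest p and a value of 1.82 (SE 0.69, limma adjusted p = 0.368), followed by Lamp2 at 1.22 (limma adjusted p = 0.591), Tfe3 at 0.77 (limma adjusted p = 0.598), Atp6v0e at 0.65 (limma adjusted p = 0.647) and Atp6v1h at -0.50 (limma adjusted p = 0.689). The Tfe3 value was 0.37 without Day 15 replicate 2, which held 11.9 RPKM. The pump genes called at Day 5 had 0.19 (Atp6ap1), 0.10 (Atp6v1c1) and 0.51 (Atp6v0b) at Day 15. Atp6ap1 and Atp6v1c1 turned below 0 with each of the 3 scalings, and Atp6v0b was 0.22 without Day 15 replicate 8. Both days share the same controls.

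Set directly against Day 5, 20 of the 21 tested members were lower at Day 15, with a median of -1.03 against -0.44 over all genes, of which 24.0% were above 0; the exception was Tfe3 at 0.38. None was called by limma, as 0% of the table was, while 10 members and 633 of all genes had an unadjusted p under 0.05. Atp6v1c1 at -2.01 (SE 0.65, limma adjusted p = 0.218), Atp6ap1 at -2.60 (SE 0.85, limma adjusted p = 0.221), Atp6v0a1 at -1.47, Cd63 at -1.23 and Atp6ap2 at -1.33 (limma adjusted p = 0.271, 0.272 and 0.273) had the smallest p. Lamp2 had -1.44 and Atp6v0b -0.91. After scaling by upper quartile, sum or quantiles, 5, 4 and 6 of the 21 were above 0, as were 40.5%, 34.3% and 49.9% of all genes. The members' median was -0.66 without Day 5 replicate 1 and -0.68 without Day 5 replicates 1 and 3.

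For 3 pairs of members the difference of log2(RPKM + 1) within a library was compared between groups. Two-sided exact permutation tests over libraries were used, adjusted over 9 tests. The pairs were chosen with earlier results of these data known, which this adjustment does not cover. Laptm5 minus Laptm4a, the blood cell form against the widespread one, averaged 1.93 ± 1.02 (SD, n = 8) at Day 5 and 0.44 ± 1.05 (SD, n = 10) in controls, a difference of 1.49 (exact p = 0.00974, adjusted p = 0.0565). It averaged 1.88 ± 0.90 (SD, n = 7) at Day 15, 1.44 above controls (exact p = 0.0125, adjusted p = 0.0565). Laptm5 was the higher of the pair in 8 of 8 libraries at Day 5, 7 of 7 at Day 15 and 5 of 10 controls. Neither difference passed after adjustment, but both did with a pseudocount of 0.1 (adjusted exact p = 0.0413 for both) and without Control replicate 5 (adjusted exact p = 0.00407 at Day 5 and 0.00393 at Day 15). Other omissions of 1 library raised the adjusted exact p to as much as 0.101 at Day 5 and 0.130 at Day 15.

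Atp6v0d2 minus Atp6v0d1 averaged -1.51 ± 1.62 (SD, n = 8) at Day 5 and -0.20 ± 1.01 (SD, n = 10) in controls, a difference of -1.31 (exact p = 0.0476, adjusted p = 0.143). Day 5 replicate 1 held 23.0 RPKM of Atp6v0d1, and leaving it out gave -0.88. Atp6v0d2 reached 1 RPKM in 2 of 25 libraries, so this difference is close to the change of Atp6v0d1 alone (1.32) with its sign turned. At Day 15 the average was -0.28 ± 0.87 (SD, n = 7), -0.09 from controls (exact p = 0.857, adjusted p = 0.924). Lamp1 minus Lamp2 averaged 0.18 ± 0.53 (SD, n = 8) at Day 5 and 0.79 ± 1.47 (SD, n = 10) in controls (difference -0.61, exact p = 0.308, adjusted p = 0.555). At Day 15 it averaged 0.39 ± 1.10 (SD, n = 7), -0.39 from controls (exact p = 0.569, adjusted p = 0.832). Day 15 against Day 5 gave differences of -0.05, 1.23 and 0.21 for the 3 pairs, in the order given (adjusted exact p = 0.924, 0.213 and 0.832).

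**Figure D5:**
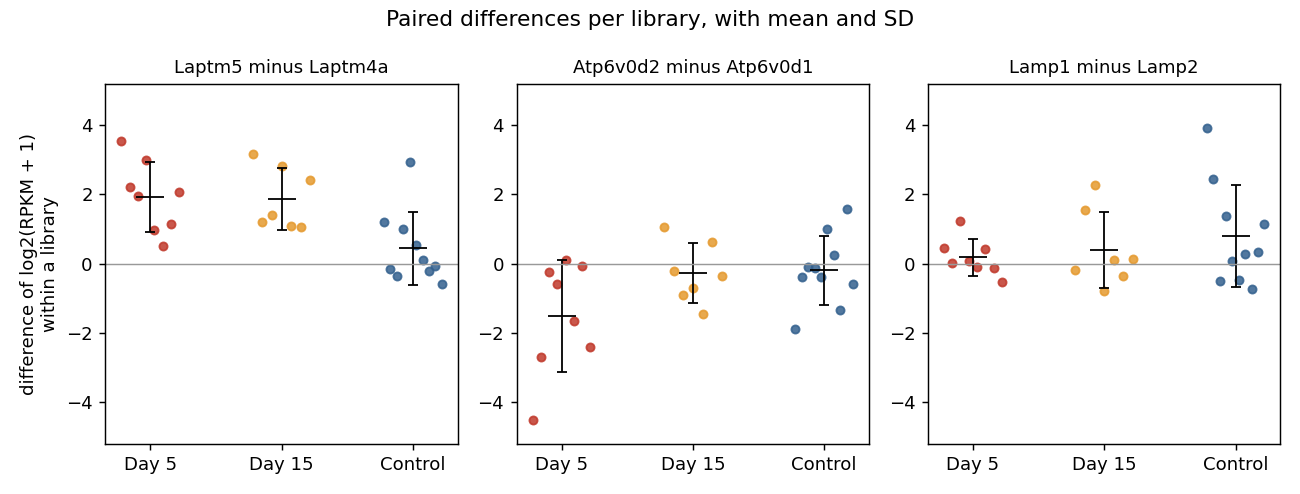
Difference of log2(RPKM + 1) between 2 genes of the same library (y axis) for 3 pairs, 1 point per library with the mean and SD of each group, in the order Day 5, Day 15 and Control. Laptm5 minus Laptm4a lies above 0 in all 15 stroke libraries and in 5 of 10 controls.

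Other genes of the pathway were counted in the same limma fit at the same threshold. Lysosomal membrane genes outside the rule rose at Day 5 in 4 of 18 tested cases, with a median change of 1.01. The 3 with the smallest p were Gpnmb at 4.77, Cd68 at 3.54 and Cd36 at 1.78, all 3 known from phagocytes, and the fourth was the chloride-proton exchanger Clcn7 at 1.43. Of 7 tested assembly factors, regulators and further subunits of the pump, 1 rose, Dmxl1 at 2.24, and the median was 0.81. Luminal enzymes rose in 5 of 16 cases among proteases and acid lipases (median 1.85; Lgmn 3.09, Ctss 3.32, Ctsd 2.95) and in 8 of 19 among glycosidases and sulfatases with their activators (median 1.53; Psap 3.75, Man2b1 3.16, Hexa 2.40). Of 21 tested sorting genes 3 rose (median 0.84; Ap3b1 2.21, Ap1b1 1.14, Igf2r 1.93). In the amino acid sensing machinery that docks mTORC1 on the lysosome, 0 of 9 were called (median 0.67). No gene of these lists fell at Day 5 (0.0232% of all tested genes did), and none was called at Day 15, where 0.0926% of all tested genes were called against control and 0% against Day 5. After upper-quartile, sum and quantile scaling the calls at Day 5 shrank to Gpnmb and Cd68 among the membrane genes each time, and to Gla and Man2b1 among the glycosidases, with Psap added under sum scaling. No protease, sorting gene or further pump gene was called after any of these scalings, and with detected genes as a covariate no gene of any list was called. The counts of 4 of 18, 1 of 7, 5 of 16, 8 of 19, 3 of 21 and 0 of 9 stand beside 4 of 21 for the members and 6.02% of all tested genes.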

How the data were processed

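The authors deposited RPKM values (the unit named by their table), with 1 column for each library and none unused. The tools CASAVA 1.8.3, STAR 2.1.4a and HTSeq and the build mm9 are listed, without roles, in the submitters' processing notes. Per the labels' protocols, cDNA was amplified from laser-captured tissue. Which reads and gene lengths RPKM was scaled to, and whether strand was used: not given in the sources used here. The depth of each library is unknown, so no counting interval is given.

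The 4319 genes that reached 1 RPKM in 7 or more libraries were kept. log2(RPKM + 1), a scale that understates changes of low genes, was fitted for all 3 groups with limma 3.58.1 in R 4.3.3 (intensity trend, robust variances, two-sided) and adjusted by Benjamini-Hochberg over all kept genes. The fit was tried on simulated data, made by shuffling each gene's deviations from its group means separately over the libraries. Such data hold no shift common to many genes of a library, so they cannot show how calls fare under such a shift. Pairs of genes were compared by exact permutation in Python 3.11.15. Promoter windows came from RefSeq (GRCm38.p6), with coordinates of that build only. Groups, and the numbers of replicates, follow the labels.

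The members, lists and pairs were chosen with earlier results of these data known. Statistics are given for members called in a comparison, otherwise for the 5 with the smallest p, levels for a fixed panel and the remaining members by role, and per list the 3 called genes with the smallest p. Beyond this rule, Day 5 changes of the uncalled tested members and the fourth called gene of 1 list are given for completeness, and Lamp1 was added to the printed promoters for its motif copies. Alternatives were a pseudocount of 0.1, no filter, 3 scalings, a replicate block, detected genes or number range as a covariate, the 2 groups alone and leaving out each library. Leaving out Day 5 replicates 1 and 3 together was added after seeing the data.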

Additional observations from a re-analysis of the deposited data

Results flagged for a closer look

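For each of the 21 tested members, the highest and lowest library of each group was set against the rest of that group on the log2(RPKM + 1) scale. By Dixon's criterion, 11 of 63 groups held a library that stood apart. About 1 in 20 would do so for normally distributed values, which values near 0 on this scale need not be. The share over all tested genes was not computed, so the count is a description. Day 5 replicate 1 stood high in Atp6ap2 (12.4 RPKM, next 2.71), and Day 5 replicate 7 stood low in Lamp1 (3.94 RPKM, next 26.9). At Day 15, replicate 8 stood high in Atp6v0b (4.66 RPKM, next 0.813) and replicate 6 in Laptm5 (72.4 RPKM, next 10.6). Control replicate 2 stood high in Atp6ap2 (41.8 RPKM, next 1.54), Atp6v0a1 (48.9 RPKM, next 3.90) and Atp6v0e (1.02 RPKM, next 0.418). Other high controls were replicate 4 in Laptm4a (7.88 RPKM, next 2.76), replicate 5 in Npc2 (229 RPKM, next 10.5), replicate 1 in Cd63 (11.8 RPKM, next 2.90) and replicate 3 in Tfe3 (2.86 RPKM, next 0.615).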

How the results depend on the processing

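At Day 5, 4 members and 261 genes were called. The counts were 8 and 553 with a pseudocount of 0.1, 1 and 24 without the filter, 0 and 23 under upper-quartile scaling, 0 and 20 after quantile normalization, 0 and 33 after sum scaling, 8 and 499 with the replicate block, 0 and 0 with detected genes as a covariate, 8 and 398 with the number range as a covariate, 8 and 365 with the 2 groups alone, and 0 and 54 without Day 5 replicates 1 and 3. Leaving out each library gave 1 (without Day 5 replicate 3) to 9 (without Day 5 replicate 7) members and 96 to 418 genes, and 2 members without Day 5 replicate 1, 7 without Day 5 replicate 9 and 8 without Control replicate 2. Uncalled members that passed when 1 library was left out were Lamp1 (Day 15 replicate 5, Day 5 replicate 7, Control replicate 1 or 2), Laptm5 (Day 15 replicate 6, Day 5 replicate 8, Control replicate 4 or 5), Atp6v1b2 (Day 15 replicate 3, Day 5 replicate 4, 7 or 9, Control replicate 2 or 4), Atp6v0e (Day 15 replicate 2, 5 or 8, Day 5 replicate 6, 7, 8 or 9, Control replicate 2), Atp6v0d1 (Day 5 replicate 7 or 9), Atp6v0a2 (Day 5 replicate 7) and Atp6ap2 (Control replicate 2). Libraries with the same number did not deviate together (r from -0.06 to 0.08 over 20 pairs), so the replicate block pairs nothing known. For libraries of unlike number r ran from -0.09 to 0.15 over 186 pairs.

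At Day 15 against control 0 members were called under any alternative, and the 4 genes became 38 (pseudocount 0.1), 0 (no filter), 9 (upper quartile), 1 (sum), 1 (detected genes), 2 (2 groups alone) and 0 to 6 (leaving out each library). Against Day 5, leaving out each library gave 0 to 8 genes and 0 members.

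Laptm5 minus Laptm4a was 1.97 at Day 5 and 2.11 at Day 15 with a pseudocount of 0.1, where both passed, and 1.26 to 1.77 and 1.23 to 1.72 leaving out each library. Day 15 against Day 5 it was 0.15 with that pseudocount, 0.073 after sum scaling and -0.26 to 0.18 leaving out each library. Ranges that crossed 0 were also -0.31 to 0.11 for Atp6v0d2 minus Atp6v0d1 at Day 15 and -0.10 to 0.41 for Lamp1 minus Lamp2 at Day 15 against Day 5.

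Uncalled members that turned below 0 at Day 5 were Atp6v1h (-0.42 upper quartile, -0.62 quantile, -0.37 sum, -0.20 detected genes, -0.12 without Day 5 replicates 1 and 3, -0.10 to 0.15 leaving out each library), Laptm4a (-0.029 and -0.058, upper quartile and quantile), Scarb2 (-0.14, -0.23 and -0.093) and Tfe3 (-0.041, -0.25 and -0.040, upper quartile, quantile and sum), Atp6v0a1 (-0.015 quantile, -0.38 detected genes), Npc1 (-0.27) and Npc2 (-0.63, detected genes). At Day 15 Atp6ap1 had -0.15, -0.17, -0.28 and -0.045 (upper quartile, quantile, sum, replicate block; -0.019 to 0.41 leaving out each library) and Atp6v1c1 -0.035, -0.062, -0.081, -0.11 and -0.045 (pseudocount 0.1, upper quartile, quantile, sum, detected genes; -0.19 to 0.25). The causes were not tested. Depth is unknown, and genes near 0 can be missed by chance.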

Other observations

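The 5 genes outside the members whose levels ran most like those of Lamp2 over the 25 libraries were Il7r, a cytokine receptor of lymphocytes (Pearson r = 0.81), Pla2g7, a secreted phospholipase of macrophages (0.80), Xdh, xanthine dehydrogenase (0.79), Dynlt3, a dynein light chain (0.78), and Cd68, a lysosomal glycoprotein of macrophages (0.78). Libraries share depth and group, so these values describe likeness in this set only.

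The median pairwise Pearson r over the 25 libraries was 0.47 among the 12 tested pump genes, 0.32 among the 21 tested members and 0.16 among all 4319 genes. With the group means removed it was 0.29, 0.19 and 0.12. The pump genes are 12 of the 21, all of them chosen by the filter on low values, and the difference between these medians was not tested.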
